A study of Mus musculus with 10 samples.

Results

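The 84 genes described here encode the proteins of the cytosolic ribosome and their paralogs, and were taken from 45706 genes by gene symbol (Rpl or Rps with a number, Rplp or Rpsa) and by the presence of a protein-coding transcript. Of these, 77 were core genes, 46 for the large and 31 for the small subunit, and 7 were paralogs whose symbol carries an added l or l1 (Rpl3l, Rpl7l1, Rpl10l, Rpl22l1, Rpl39l, Rps4l and Rps27l). They were followed through the reprogramming of mouse embryonic fibroblasts (MEF) toward pluripotency in 10 poly(A) RNA libraries, 2 for each of 5 stages. The fibroblasts, of a C57BL/6 x 129 background, carried an OKSM cassette (Oct4, Klf4, Sox2 and Myc) in the Col1a1 locus and the doxycycline-responsive transactivator M2rtTA in the ROSA26 locus, and the MEF group had no doxycycline. The day 3 (D3), day 6 (D6) and day 9 (D9) groups had the same genotype and were grown in stem cell medium with doxycycline at 1 µg/ml and ascorbic acid at 50 µg/ml. D3 was the whole culture, whereas D6 and D9 were sorted for the surface antigen SSEA1, so that D6 against D3 combines time and sorting. The ESC group was the embryonic stem cell line V6.5, a line of the same mixed strain without the cassette, kept in stem cell medium on irradiated feeder cells. D3 differs from MEF in doxycycline, ascorbic acid and medium together, and these cannot be told apart. The 2 groups also differ in Y-linked genes and Xist, as given below. A difference in the sex or donor of the cells therefore cannot be told apart from induction.

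Each ribosome holds a single copy of nearly every ribosomal protein, bound to ribosomal RNA in a large and a small subunit, and cells make the proteins in matched amounts. The mRNAs of these genes typically begin with a run of pyrimidines, the terminal oligopyrimidine tract, through which mTOR and the RNA-binding protein Larp1 adjust their translation. Myc raises the transcription of many genes of ribosome production. Most ribosomal protein genes have many processed pseudogenes in the mouse genome, some nearly identical in sequence. A few have a functional paralog that can take the parent's place in the ribosome, and several of these, such as Rpl10l, Rpl39l and Rpl3l, are known for expression in testis or muscle.

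The sequence around the annotated start is shown for 4 paralogs and 3 parent genes, because the pyrimidine run is the feature by which the core genes are regulated as a class. Each runs from 40 bases before to 10 bases after the RefSeq start (GRCm38.p6), read 5′ to 3′ on the gene's strand, and capitals mark the unbroken run of C and T that covers the start base.
Rps27 (small subunit, chr3:90213638-90213688, minus strand): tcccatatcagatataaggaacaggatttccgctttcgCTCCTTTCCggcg
Rps27l (its paralog, chr9:66946046-66946096, plus strand): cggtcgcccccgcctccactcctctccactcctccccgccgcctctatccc
Rpl39 (large subunit, chrX:37085212-37085262, minus strand): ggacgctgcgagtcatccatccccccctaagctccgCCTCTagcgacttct
Rpl39l (its paralog, chr16:10170188-10170238, plus strand): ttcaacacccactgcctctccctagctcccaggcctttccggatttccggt
Rpl10 (large subunit, chrX:74270776-74270826, plus strand): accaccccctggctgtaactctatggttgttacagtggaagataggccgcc
Rpl10l (its paralog, chr12:66284391-66284441, minus strand): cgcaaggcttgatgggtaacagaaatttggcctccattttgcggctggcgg
Rpl7l1 (paralog of Rpl7, chr17:46782646-46782696, minus strand): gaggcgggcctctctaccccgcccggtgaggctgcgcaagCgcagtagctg
The RefSeq table held a start window for 57 of the 77 core genes and 6 of the 7 paralogs. A run of at least 5 pyrimidines covered the start base in 20 of the 57 core genes (35.1%), in 0 of the 6 paralogs and in 11.8% of all 27025 genes with a window. The run was 9 bases long in Rps27 and 5 in Rpl39, and Rpl10, a core gene, had none at its annotated start. In Rpl39l a run of C and T ends at the base before the annotated start, and in Rps27l one begins at the base after it. The count for the paralogs therefore depends on the exact start base. In the whole window of 300 bases on either strand, the Ets-type motif CCGGAAG was found in 24 core genes (42.1%), 2 paralogs and 9.93% of all genes. The GC box GGGCGG was found in 35 core genes (61.4%), 4 paralogs and 38.2% of all genes, and the E-box CACGTG, bound by Myc and its partners, in 6 core genes (10.5%), 0 paralogs and 8.09% of all genes. The motif AAGATGGC, a YY1-type sequence, was found in 5 core genes (8.77%), 1 paralog and 3.19% of all genes. Each gene counts as holding a feature if any of its windows does, CCGGAAG and AAGATGGC can share the letters AAG at one site, and an annotated start can lie several bases from the start in use.

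The libraries held 29585876 to 38275024 estimated reads. The labels do not say that the 2 libraries of a group came from separate cultures, so p-values measure the spread between these libraries, which may be technical. The 10 fibroblast markers (Col1a1, Col3a1 and others) summed to 50034 and 51529 CPM (read counts scaled to library size) in MEF, 4619 and 4659 in D3, 123 to 331 in D6 and D9, and 4491 and 4632 in ESC. The 7 pluripotency markers summed to 4.63 and 5.1 CPM in MEF and 4829 and 4975 in ESC. The 4 Y-linked genes summed to 193 CPM in each MEF library, 62.8 and 63.4 in ESC, and 1.68 to 3.3 in D3, D6 and D9, while Xist stood at 0.739 and 0.793 in MEF, 930 to 1317 in D3 to D9, and 9.0 and 11.3 in ESC. MEF and ESC thus differ from D3 to D9 in these sex-linked genes, and ESC had fibroblast markers at about the D3 level, with feeder cells in its culture; their part in the changes below was not tested.

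Reads of 50 bases cannot always tell a ribosomal protein gene from its copies. Genes outside the list with at least 50% of their 50-base windows in a member's transcripts are called look-alikes here, and there were 199 of them, for 66 of the 77 core genes and 1 paralog (Rpl22l1). Over all libraries the median core gene held 51.4% of the reads on itself and its look-alikes, 38 core genes held under 50%, and 22 held over 99%. Rps12 is listed at 0 reads in all 10 libraries, while Rps12l1, a look-alike gene without a protein-coding transcript in these tables, held 866 to 1218 CPM. For Rps27 the gene itself held 0.9% of these reads, the rest being on Rps27rt, and for Rpl5 it held 4.0%, with 94.2% to 97.0% on the copy Gm15500. Each of the 7 paralogs held at least 99.7% of these reads, much as those 22 core genes did. This counts only look-alikes by the rule above: 0.0% to 51.4% of a paralog's own windows also occur in other genes, most in Rpl22l1. Changes of core genes are therefore given for the gene alone and, where this matters, with look-alike reads added.

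Core ribosomal protein genes took a larger share of the library at every reprogramming stage than in MEF. Their reads made up 3.55% and 3.64% of the MEF libraries, 5.1% and 4.7% of D3, 5.18% and 5.31% of D6, 5.1% and 5.19% of D9, and 4.6% and 4.73% of ESC. The lowest library of any other group lay above both MEF libraries, and both ESC libraries lay below all D6 and D9 libraries. With look-alike reads added the shares were 5.88% and 6.01% in MEF, 7.72% to 8.68% in D3 to D9, and 7.33% and 7.59% in ESC, with the ESC libraries again below every D6 and D9 library. A share also depends on the other genes of the library. With library-size scaling the median of all genes was 0.29 higher in D3 than in MEF on the log2 scale, and the core median 0.49. For ESC against MEF these were 0.44 and 0.41, so the larger core share in ESC is not particular to the core genes. Fewer cells with high levels and less RNA per cell cannot be told apart in such bulk samples. The 7 paralogs together took 0.0392% and 0.0415% of the MEF reads and 0.0876% and 0.0902% of the ESC reads.

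**Figure D1:**
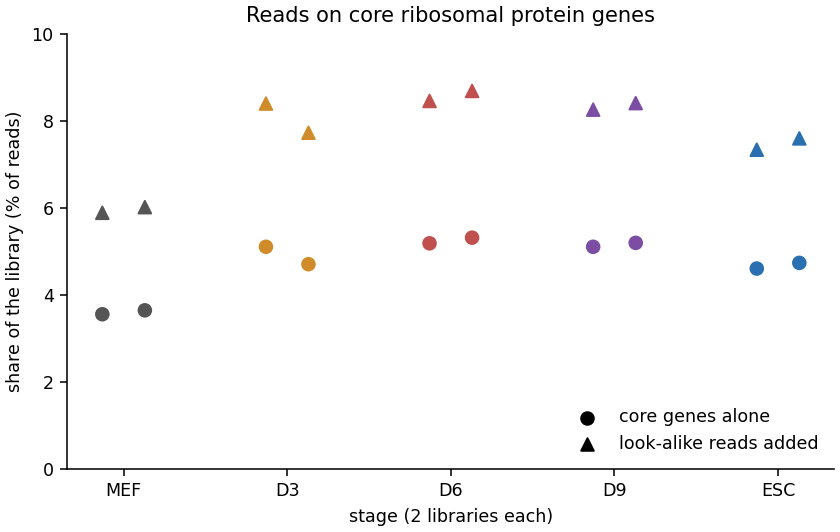
Share of each library's reads on the 77 core ribosomal protein genes, in percent, for the gene alone (circles) and with look-alike reads added (triangles); each point is 1 library and the axis starts at 0. Both MEF libraries lie lowest (3.55% and 3.64% for the gene alone), and ESC (4.6% and 4.73%) lies between MEF and the D6 and D9 libraries.

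At 3 days of induction most core genes were higher than in the MEF group, each by a little. Of the 76 tested (Rps12, at 0, was not), 60 were higher in D3 than in MEF and 2 were lower at an adjusted p under 0.05 (edgeR quasi-likelihood test), whereas 35.4% of all 20165 genes tested were higher and 29.5% lower. The median core gene had a log2 fold change of 0.28, a 1.22-fold rise, against a median of 0.08 over all genes. Just 1 core gene, Rpl17, passed 2-fold, compared with 29.1% of all genes called at that size in either direction. The rise involved both subunits, with 37 of 46 large-subunit and 23 of 30 tested small-subunit genes higher and medians of 0.28 and 0.27. The 2 lower genes were Rpl30 (-0.8, but 0.09 with look-alike reads) and Rps2 (-0.14, but 0.06 with library-size scaling). Library-size scaling gave 73 higher and 1 lower gene, and the scaling of DESeq2 inside edgeR (RLE) gave 49 and 7; the core median lay 0.2 and 0.16 above that of all genes under these 2 scalings, and 0.2 above it with TMM. Without D3 replicate 1 the number of lower genes was 6 in place of 2, and without D3 replicate 2 or MEF replicate 2 it was 1.

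**Figure D2:**
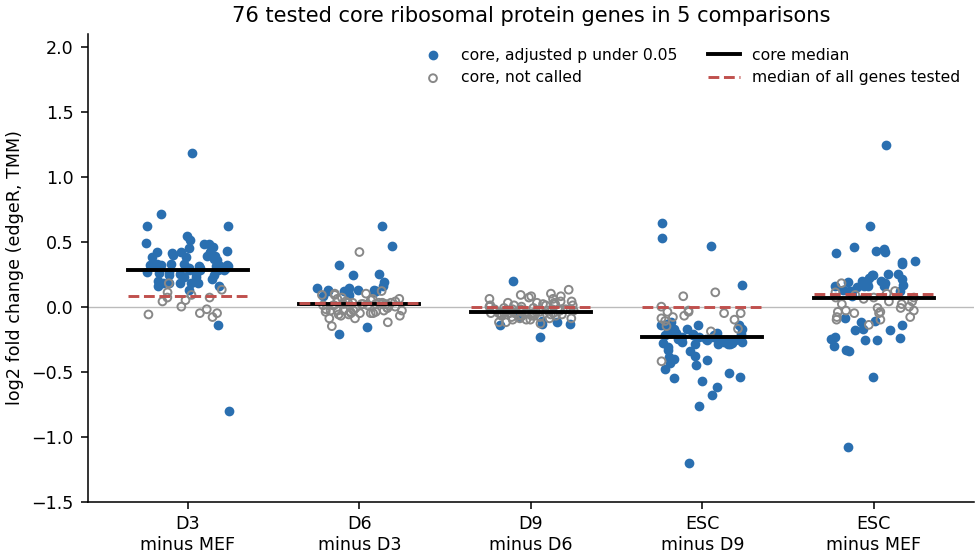
Log2 fold changes (vertical axis) of the 76 tested core genes in the 5 comparisons; filled points passed an adjusted p under 0.05, black lines are core medians and dashed red lines the medians of all 20165 genes. The core median lies at 0.28 for D3 against MEF and at -0.23 for ESC against D9, and within 0.04 of the median of all genes in the other 3 comparisons.

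From D3 on the core genes changed little in read counts. From D3 to D6, 19 core genes were higher and 2 lower (Rpl39 and Rplp1), against 29.2% and 27.3% of all genes, and the core median of 0.02 was level with the 0.03 of all genes. No core gene passed 2-fold, against 19.5% of all genes. The number of higher core genes was 32 without D3 replicate 1 and 5 without D3 replicate 2, which had core shares of 5.1% and 4.7%, and it was 10 and 5 without D6 replicates 1 and 2. The number of lower ones went from 0 without D3 replicate 1 to 21 without D3 replicate 2, so neither count holds across libraries. From D6 to D9, 1 core gene was higher (Rpl10, which was at -0.04 with look-alike reads) and 7 were lower, against 15.7% and 18.9% of all genes, with a core median of -0.04 and none past 2-fold against 7.87% of all genes. Without D6 replicate 2 or D9 replicate 1 only 1 was lower, and without D6 replicate 1 there were 4. Other settings gave more: 13 were lower without the low-count filter, where 3989 of all 32272 genes were lower. In a fit to D6 and D9 alone 15 were lower, beside 3823 of all 17487 genes. On the TPM scale (limma on log2(TPM + 1)) 24 were lower, beside 3168 of all 20165 genes. The core median was then -0.12, against -0.03 for all genes. In TPM the core share was 10.1% and 10.3% in D6 and 9.25% and 9.36% in D9, with no overlap. Mitochondrially encoded reads went from 3.07% and 3.15% of the library in D6 to 5.32% and 5.0% in D9. Without them the core read share was 5.34% and 5.49% in D6 and 5.39% and 5.46% in D9. Their part in the TPM values was not tested. Of the 60 genes that rose by D3, 41 were called in neither of these later comparisons. This count rests on calls that change with the library left out, and the share over all genes was not computed.

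ESCs had lower core levels than D9 cells. The groups also differ in cell line, cassette and SSEA1 sorting. Doxycycline and ascorbic acid are listed for D9 but not for ESC, which was kept on feeder cells. These cannot be told apart from stage. In ESC, 55 of 76 core genes were lower than in D9 and 4 were higher (Rpl30, Rps2, Rpl3 and Rpl13a), against 33.5% and 36.1% of all genes. The core median was -0.23, with 0.0 for all genes, and it lay 0.23 under the median of all genes with each of TMM, library-size and RLE scaling. A single core gene, Rps3a1, passed 2-fold, against 32.9% of all genes. By subunit, 31 of 46 large-subunit and 24 of 30 small-subunit genes were lower, with medians of -0.22 and -0.25. On the TPM scale 24 core genes were lower and 9 higher, with a median of -0.06 (limma on log2(TPM + 1)) against 0.08 for all genes. The core share in TPM was nearly level, at 9.25% and 9.36% in D9 and 9.02% and 9.23% in ESC.

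Between ESC and MEF, the 2 ends of the course, the median core gene moved about as the median of all genes did. Against MEF, 32 core genes were higher and 17 lower in ESC, compared with 40.4% and 36.2% of all genes, and the median of 0.07 lay beside 0.1 for all genes. Past 2-fold were 2 core genes, Rpl3 and Rps3a1, against 46.1% of all genes. These counts follow the scaling: with library-size scaling 67 were higher and 2 lower, and with RLE scaling 22 were higher and 26 lower. The median of all genes moves too (0.44 and 0.02), and the core median lay 0.03 below it under all 3. The large subunit had 24 higher and 6 lower of 46, and the small subunit 8 higher and 11 lower of 30. With look-alike reads added, this became 18 and 13 of 46 for the large and 8 and 10 of 31 for the small subunit.

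The spread among core genes was smaller once the copies were included, between replicates as well as between groups. The SD over core genes of the log2 change relative to the median core gene was 0.235 for D3 against MEF, 0.131 for D6 against D3, 0.069 for D9 against D6, 0.256 for ESC against D9 and 0.285 for ESC against MEF. Between the 2 libraries of a group it was 0.053 to 0.089. That is a difference of single libraries, whereas a comparison takes means of 2 libraries, which vary less. The value of D9 against D6 lies in this range but can still exceed the noise. With look-alike reads added the 5 values were 0.159, 0.083, 0.049, 0.154 and 0.198, with 0.02 to 0.037 between libraries of a group, and D9 against D6 then lay above that range. In the comparison of ESC with MEF, 61 of 77 core genes then lay within 0.25 of the median core gene. This measure does not depend on how libraries are scaled.

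Levels per length ranged widely among core genes. By mean TPM (transcript level per length, scaled to the library) over the 10 libraries the highest core genes were Rpl13a, Rpl18, Rpl6 and Rps15a, with MEF means of 11896, 7351, 4179 and 4875 TPM. The lowest were Rps12 at 0, Rps27 (12.5 TPM in MEF), Rpl5 (13.3) and Rps7 (34.3), all genes that held 0.0% to 5.8% of the reads on themselves and their look-alikes. The median core gene stood at 672 TPM in MEF, 843 in D3, 902 in D6, 831 in D9 and 668 in ESC. Effective lengths in the tables were the same in all libraries, so TPM values of short transcripts rest on an assumed fragment length.

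Among the core genes, several of the small subunit had the clearest rise and fall. Rps16 stood at 346 and 369 CPM in MEF, 607 and 560 in D3, 542 and 572 in D6, 548 and 524 in D9, and 314 and 321 in ESC. Both ESC libraries lay below MEF and all libraries from D3 to D9 lay far above both. Its log2 fold change was 0.71 ± 0.04 (SE) for D3 against MEF (edgeR adjusted p = 3.7e-09) and -0.76 ± 0.04 for ESC against D9 (edgeR adjusted p = 1.8e-09). Rpsa, which also serves as a laminin receptor, was at 822 and 816 CPM in MEF, 1325 and 1200 in D3, 1191 and 1247 in D6, 1102 and 1109 in D9, and 726 and 762 in ESC. It had the same shape, with a rise of 0.62 ± 0.04 by D3 and a change of -0.57 ± 0.04 from D9 to ESC (edgeR adjusted p = 8.9e-09 and 2.5e-08). Rps19, the gene most often mutated in Diamond-Blackfan anaemia, was at 861 and 893 CPM in MEF, 1211 and 1065 in D3, 1203 and 1242 in D6, 1134 and 1153 in D9, and 691 and 732 in ESC. Its ESC libraries were the lowest of the 10, and from D9 to ESC it fell by 0.68 on the log2 scale (SE 0.05, edgeR adjusted p = 1.9e-08). With look-alike reads added, the D9 to ESC changes of Rps16, Rpsa and Rps19 were -0.67, -0.48 and -0.69. In ESC against MEF the 3 genes were at -0.17, -0.14 and -0.3 with TMM, but at 0.17, 0.2 and 0.04 with library-size scaling.

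Rps15a, of the small subunit, lay further below the median core gene in ESC against MEF than any tested core gene but Rps3a1. It was at 334 and 340 CPM in MEF, 337 and 301 in D3, 318 and 326 in D6, 297 and 311 in D9, and 223 and 242 in ESC. It did not share the D3 rise (log2 fold change -0.08 ± 0.05, edgeR adjusted p = 0.19) and both ESC libraries were lower than all others, 0.61 below the median core gene in the comparison with MEF. Rpl36, of the large subunit, rose: it was at 160 and 151 CPM in MEF, 254 and 223 in D3, 239 and 252 in D6, 223 and 253 in D9, and 197 and 231 in ESC. The MEF libraries were the lowest, and ESC stood 0.46 ± 0.08 above MEF (edgeR adjusted p = 0.0001), 0.39 above the median core gene.

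The proteins of the stalk, the part of the large subunit that recruits translation factors, did not follow the D3 rise as a set. Rplp0, its base, was at 2117 and 2135 CPM in MEF, 2327 and 2123 in D3, 2166 and 2250 in D6, 2049 and 2077 in D9, and 1748 and 1809 in ESC. Rplp1 was at 1572 and 1602 CPM in MEF, 1612 and 1460 in D3, 1337 and 1410 in D6, 1278 and 1303 in D9, and 1220 and 1295 in ESC. Rplp2, the partner of Rplp1, was at 536 and 548 CPM in MEF, 700 and 617 in D3, 657 and 667 in D6, 667 and 718 in D9, and 623 and 668 in ESC. Rplp2 alone was higher in D3 than in MEF (0.28 ± 0.05, edgeR adjusted p = 0.00034), and it remained above both MEF libraries in every later library. Rplp1 and Rplp0 were lower in ESC than in MEF with TMM (-0.34 ± 0.04 and -0.26 ± 0.04, edgeR adjusted p = 8.3e-06 and 3e-05), but with library-size scaling their values were 0.0 and 0.08. Relative to the median core gene they were 0.41 and 0.33 lower in ESC than in MEF, and Rplp2 was 0.18 higher.

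Rpl5 and Rpl11 join a small ribosomal RNA in a particle that also binds Mdm2, the inhibitor of p53. Rpl11 was higher in D3 than in MEF (0.33 ± 0.05, edgeR adjusted p = 7.9e-05) and lower in ESC than in D9 (-0.2 ± 0.05, edgeR adjusted p = 0.0032). Rpl5 alone was at 36.6 and 35.9 CPM in MEF, 52.7 and 50.4 in D3, 81.0 and 77.0 in D6, 66.2 and 69.0 in D9, and 48.6 and 48.1 in ESC, a course with its highest values at D6. With the reads of Gm15500 and its other copies added, the D3 to D6 step of Rpl5 was -0.01 in place of 0.62.

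The 4 X-linked core genes were Rpl10, Rpl36a, Rpl39 and Rps4x. All 4 were higher in D3 than in MEF and lower in ESC than in D9, with medians of 0.24 and -0.26 beside 0.28 and -0.22 for the autosomal ones. With look-alike reads added, 2 of the 4 were higher in D3. Scaled to the core genes, Rpl10 and Rpl39 were at -0.11 and -0.07 for D3 against MEF, and Rpl39 was at 0.02 for ESC against D9. The sex-linked genes given above move with both comparisons: Xist went from 1103 and 1047 CPM in D9 to 11.3 and 9.0 in ESC, and the Y-linked genes from 2.8 and 2.42 to 62.8 and 63.4. Their part in these changes was not tested. Without the X-linked genes, 56 of 72 core genes were higher in D3 than in MEF and 51 of 72 lower in ESC than in D9.

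For a few core genes the size or direction of the change depended on whether the reads of copies were counted. Adding look-alike reads moved 10 of 76 core genes by more than 0.25 on the log2 scale in ESC against MEF, 5 of them by more than 0.5 (Rpl3, Rpl12, Rpl10, Rps3a1 and Rpl17), with a median move of 0.01. Of the 60 higher genes at D3, 55 were higher with look-alike reads too, and of the 55 lower genes in ESC against D9, 50 were lower with them too. The largest rise belonged to Rpl3, at the peptidyl transferase centre, which was at 515 and 568 CPM in MEF, 812 and 767 in D3, 859 and 874 in D6, 915 and 936 in D9, and 1274 and 1282 in ESC. Rpl3-ps1, annotated as its pseudogene, was at 1099 and 1079 CPM in MEF, 1348 and 1299 in D3, 1493 and 1486 in D6, 1381 and 1422 in D9, and 665 and 667 in ESC. The 2 genes thus ran opposite ways from D9 to ESC, and Rpl3 held 39.8% and 39.7% of the reads of the family in D9 and 65.6% and 65.7% in ESC. For Rpl3 alone ESC was 1.24 ± 0.04 above MEF (edgeR adjusted p = 1.9e-12), and with look-alike reads 0.26 ± 0.03. From D9 to ESC the direction turned, from 0.47 to -0.26.

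Rps3a1, a small-subunit gene, was at 1043 and 1092 CPM in MEF, 1322 and 1203 in D3, 1220 in each D6 library, 1151 and 1166 in D9, and 509 and 499 in ESC, its lowest values by far. Rps3a2, a copy listed without a protein-coding transcript, was at 253 to 324 CPM in all libraries up to D9 and at 558 and 569 in ESC. Rps3a3, a more distant copy that falls short of the look-alike threshold, was at 0.296 to 0.968 CPM up to D9 and at 234 and 238 in ESC. The fall of Rps3a1 to ESC was thus met by higher values of both copies: the 3 genes together summed to 1308 and 1346 CPM in MEF, 1430 and 1452 in D9, and 1301 and 1306 in ESC. The log2 fold change of Rps3a1 in ESC against MEF was -1.08 ± 0.04 (edgeR adjusted p = 5.3e-12) for the gene alone and -0.31 ± 0.04 with Rps3a2 added.

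Rpl30 was at 133 and 137 CPM in MEF, 82.1 and 73.0 in D3, 90.0 and 94.0 in D6, 95.1 and 99.0 in D9, and 146 and 157 in ESC. Alone it dipped in all 6 libraries between, with a log2 fold change of -0.8 ± 0.05 in D3 against MEF, but with its 6 look-alikes that step was 0.09 and the step from D9 to ESC -0.11 in place of 0.64. For Rps2 the change from D9 to ESC was 0.53 alone and 0.12 with look-alikes, and for Rpl17 the step from MEF to D3 was 1.18 and 0.37. Rpl12 was 0.62 higher in ESC than in MEF alone and -0.15 with look-alikes, and Rpl10 0.18 and -0.44. Whether these reads come from the gene or from its copy was not tested.

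**Figure D3:**
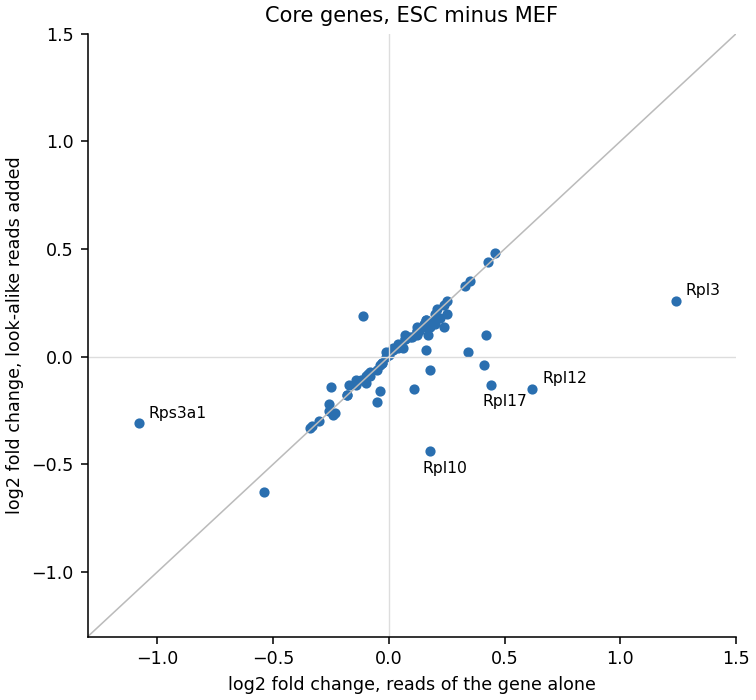
Log2 fold change of each tested core gene in ESC against MEF from the reads of the gene alone (horizontal) and with look-alike reads added (vertical); the diagonal marks equal values and names are given where the 2 differ by more than 0.5. Most genes lie on the diagonal, while Rpl3 drops from 1.24 to 0.26 and Rps3a1 comes up from -1.08 to -0.31.

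The paralogs differed among themselves in their course. In ESC, Rps4l and Rpl39l stood past 2-fold above D9, where no core gene rose that far. Over all genes 32.9% were called past 2-fold in either direction. Rpl7l1 was higher by less than 2-fold, and Rpl22l1 and Rps27l were lower. Rpl10l and Rpl3l were past 2-fold as well, but passed the low-count filter only through the ESC libraries. Their call there followed from being tested at all, so they support no count.

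**Figure D4:**
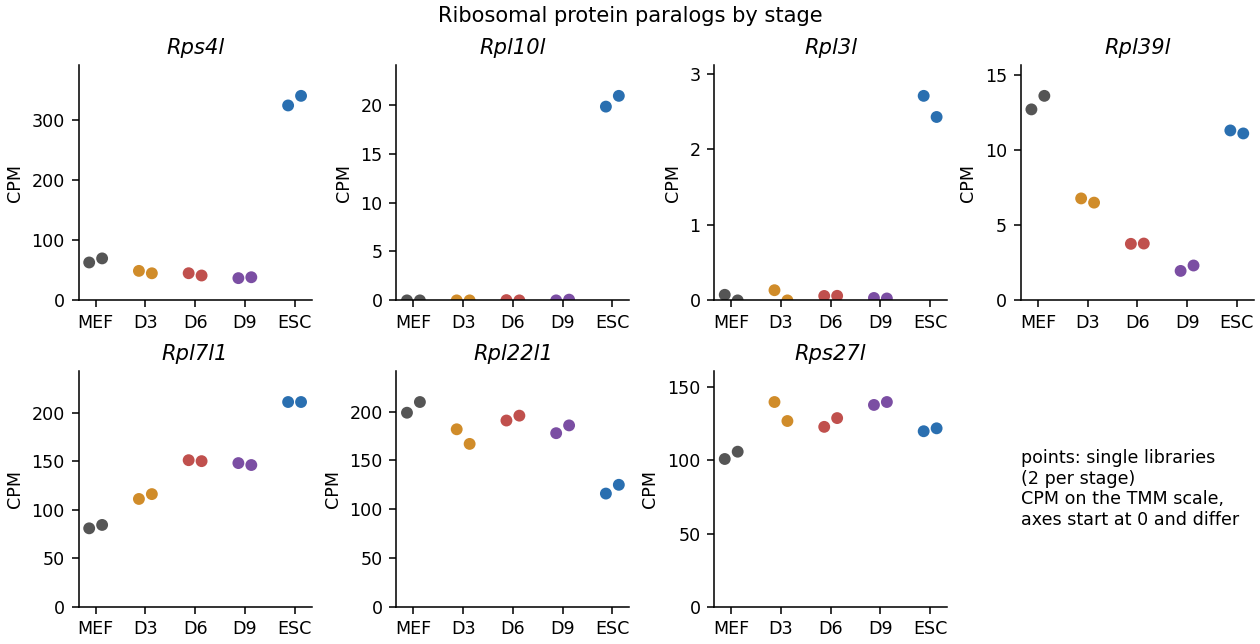
CPM of the 7 paralogs in each of the 10 libraries, with a panel per gene and axes that start at 0 and differ in height. Rps4l, Rpl10l and Rpl3l are highest in both ESC libraries (325 and 341 CPM for Rps4l), Rpl39l falls to 1.96 and 2.32 CPM at D9, and Rpl22l1 is lowest in ESC (116 and 125 CPM).

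Rps4l, an autosomal copy of the X-linked Rps4x (chromosome 6, 148354656 to 148355598, GRCm38), was at 63.2 and 70.0 CPM in MEF, 49.2 and 45.2 in D3, 45.3 and 41.5 in D6, 37.1 and 38.6 in D9, and 325 and 341 in ESC. Both MEF libraries lay above all D3 to D9 libraries, and both ESC libraries lay far above MEF. It fell by D3 (-0.5 ± 0.06, edgeR adjusted p = 4.5e-06) and was 3.14 ± 0.06 higher in ESC than in D9 (edgeR adjusted p = 5e-15). Its parent Rps4x was at 1427 and 1471 CPM in MEF, 1883 and 1717 in D3, and 1334 and 1342 in ESC. On the per-length scale Rps4l made up 4.16% and 4.41% of the TPM of the pair in MEF, 2.17% and 2.22% in D9, and 19.2% and 19.9% in ESC.

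Rpl10l, an intronless copy of the X-linked Rpl10 on chromosome 12 (66283379 to 66284401), had 0 reads in all 4 MEF and D3 libraries. It had 1 and 0 reads in the D6 libraries, 0 and 3 in D9, and 673 and 781 in ESC, or 19.8 and 20.9 CPM. Against a floor of 3 reads in each library, ESC was at least 178-fold higher than MEF and at least 223-fold higher than D3. Against D9, with 3 reads in all, the ratio was 480 (95% interval 164 to 2330, exact, counting error only). Rpl10l made up 6.34% and 6.63% of the TPM of the pair with Rpl10 in ESC, and with the look-alike reads added to the parent it made up 1.68% and 1.7% of the reads of the pair.

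Rpl3l, known as the form of Rpl3 in striated muscle (chromosome 17, 24727820 to 24736143), had 2 and 0 reads in MEF, 5 and 0 in D3, 2 and 2 in D6, 1 and 1 in D9, and 92 and 91 in ESC. This was 2.71 and 2.43 CPM in ESC, a low level, with all other libraries near 0. The ratio of ESC to MEF was 76.7 (95% interval 20.9 to 638), to D3 36.4 (15.3 to 113), to D6 43.0 (16.5 to 159) and to D9 90.6 (24.7 to 754), exact intervals that cover counting error only and overlap one another. It made up no more than 0.268% of the TPM of the pair with Rpl3 in any library.

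Rpl39l, a paralog of the X-linked Rpl39 on chromosome 16 (10170226 to 10174911), fell at every step of the induced course. It was at 12.7 and 13.6 CPM in MEF, 6.78 and 6.5 in D3, 3.76 and 3.78 in D6, 1.96 and 2.32 in D9, and 11.3 and 11.1 in ESC. The groups do not overlap, and each of the 3 steps was of similar size: -0.98 ± 0.1, -0.82 ± 0.12 and -0.81 ± 0.14 (edgeR adjusted p = 1e-06, 3.1e-05 and 0.00032). ESC was 2.37 ± 0.12 above D9 (edgeR adjusted p = 3.2e-10). The comparison of ESC with MEF was at -0.23 ± 0.1 (edgeR adjusted p = 0.046), turned to 0.11 with library-size scaling and was not called when any 1 of the 4 libraries was left out (values from -0.29 to -0.18). In TPM it made up 11.5% and 11.8% of the pair with Rpl39 in MEF, 2.08% and 2.01% in D9, and 11.7% and 11.5% in ESC. In reads, with the look-alikes of Rpl39 added to the parent and no correction for length, it made up 3.62% and 3.67% in MEF, 0.631% and 0.693% in D9, and 4.07% and 3.5% in ESC. The 10 fibroblast markers summed in ESC to about the D3 level, as given above, and their part in the ESC value was not tested.

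Rpl7l1, a relative of Rpl7 on chromosome 17 (46773907 to 46782672), stepped up along the course. It was at 80.7 and 84.2 CPM in MEF, 111 and 116 in D3, 151 and 150 in D6, 148 and 146 in D9, and 211 in each ESC library. MEF was lowest, D6 and D9 were close together, and ESC was highest. The steps were 0.46 ± 0.04 to D3, 0.41 ± 0.04 to D6 and 0.53 ± 0.03 from D9 to ESC (edgeR adjusted p = 6e-08, 2e-07 and 6.1e-09), while D9 against D6 was at -0.04 ± 0.04 (edgeR adjusted p = 0.45). Its call in these 3 steps held under every alternative tried. In TPM it made up 1.11% and 1.12% of the pair with Rpl7 in MEF and 2.66% and 2.63% in ESC. In reads with the look-alikes of Rpl7 added, not corrected for length, this was 6.35% and 6.48% in MEF and 14.3% and 14.2% in ESC.

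Rpl22l1 and Rpl22 changed in opposite directions from MEF to D3. Rpl22l1 (chromosome 3, 28805436 to 28807424) was at 199 and 210 CPM in MEF, 182 and 167 in D3, 191 and 196 in D6, 178 and 186 in D9, and 116 and 125 in ESC, with MEF highest and ESC lowest. Rpl22, the parent, was at 317 and 315 CPM in MEF, 451 and 417 in D3, 465 and 482 in D6, 453 and 464 in D9, and 359 and 366 in ESC. From MEF to D3 Rpl22l1 changed by -0.23 ± 0.05 (edgeR adjusted p = 0.00064), which was -0.03 with library-size scaling, and Rpl22 by 0.46 ± 0.04 (edgeR adjusted p = 7.3e-08). In ESC Rpl22l1 was -0.76 ± 0.05 against MEF and -0.59 ± 0.05 against D9 (edgeR adjusted p = 2.4e-09 and 7.1e-08). Its share of the TPM of the pair was 36.9% and 41.2% in MEF, 28.9% to 32.1% in D3 to D9, and 25.0% in each ESC library.

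Rps27l, a p53 target and paralog of Rps27 on chromosome 9 (66946086 to 66949516), rose with the core at D3. It was at 101 and 106 CPM in MEF, 140 and 127 in D3, 123 and 129 in D6, 138 and 140 in D9, and 120 and 122 in ESC. MEF was lowest and the other groups lay close together. From D6 to D9 it was higher (0.15 ± 0.05, edgeR adjusted p = 0.021), 0.19 above the median core gene, and from D9 to ESC lower (-0.21 ± 0.04, edgeR adjusted p = 0.00093). It rose by 0.36 ± 0.05 to D3 (edgeR adjusted p = 7e-06), 0.08 above the median core gene, and was 0.22 ± 0.05 higher in ESC than in MEF (edgeR adjusted p = 0.00061). As the reads of Rps27 lay on Rps27rt, the share of this pair is given in reads with that copy included: Rps27l made up 19.0% and 19.3% in MEF, 19.3% to 22.0% in D3 to D9, and 23.3% and 22.7% in ESC.

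Genes of ribosome production were mostly higher at D3, at D6 and in ESC against MEF, where 35.4%, 29.2% and 40.4% of all genes were called higher. Of 37 ribosome assembly factors, 28 were higher and 6 lower in D3 than in MEF, and all 37 were higher in D6 than in D3 (36 with RLE scaling) and in ESC than in MEF, with medians of 0.37, 0.65 and 1.28. Dkc1, the pseudouridine synthase of snoRNA particles, was 2.59 ± 0.05 higher in ESC than in MEF, and Heatr1 and Lyar were 2.12 ± 0.04 and 2.1 ± 0.04 higher (edgeR adjusted p = 2.2e-15, 9.1e-15 and 8.6e-15). Of 12 tested genes of RNA polymerase I and its initiation factors, which make ribosomal RNA, 11 were higher at D3, 11 at D6 and 11 in ESC against MEF, with medians of 0.45, 0.44 and 1.22. Polr1b was 1.18 ± 0.05 higher at D3 and 2.1 ± 0.05 higher in ESC than in MEF (edgeR adjusted p = 1.2e-10 and 5.9e-14). The 5 chaperones that escort new ribosomal proteins were all higher at D6 than at D3 and in ESC than in MEF, and Grwd1, which binds Rpl3, was 1.62 ± 0.05 higher in ESC (edgeR adjusted p = 3.7e-13). From D9 to ESC the calls were divided: 25 assembly factors were higher and 8 lower (median 0.24), 5 polymerase I genes were higher and 4 lower (median 0.11), and 1 chaperone was higher and 2 lower (median 0.01), against 36.1% higher and 33.5% lower over all genes. From D6 to D9, 13 assembly factors and 5 polymerase I genes were higher and 0 chaperones, against 15.7% of all genes. Lower were 0 assembly factors, 2 polymerase I genes and 1 chaperone, against 18.9% of all genes.

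**Figure D5:**
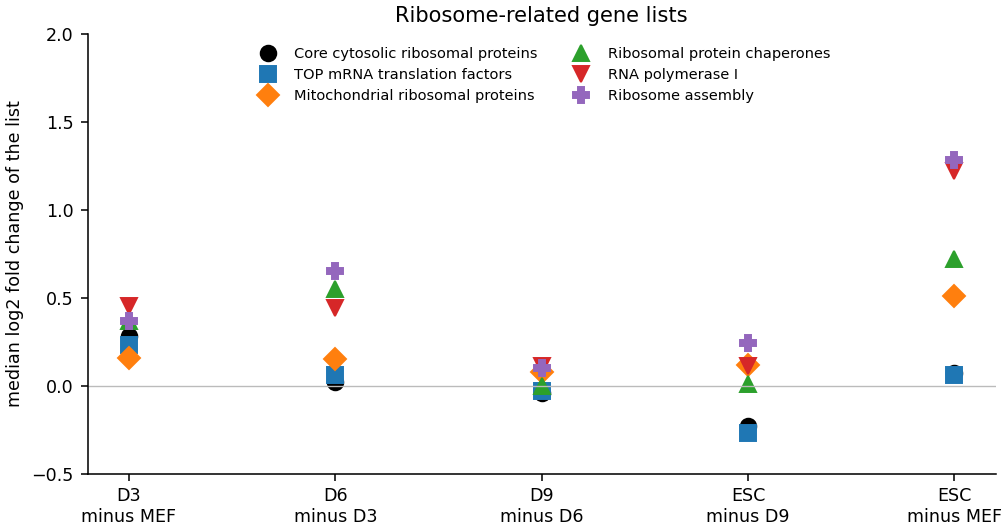
Median log2 fold change (vertical axis) of 6 gene lists in the 5 comparisons. Core ribosomal proteins and the pyrimidine-tract list, mostly translation factors, lie together in all 5 (0.28 and 0.23 at D3, -0.23 and -0.27 for ESC against D9). RNA polymerase I and ribosome assembly reach 1.22 and 1.28 in ESC against MEF.

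The 15 listed genes known for the same pyrimidine tract, most of them translation factors, had medians beside those of the core. The tract was not looked for in these genes here, and Nap1l1 is also among the chaperones above. Over all genes 35.4% were higher and 29.5% lower at D3, 15.7% and 18.9% from D6 to D9, and 36.1% and 33.5% in ESC against D9. Of 15, 10 were higher and 3 lower at D3 (median 0.23, and 8 and 5 with RLE scaling), 0 were higher and 5 lower from D6 to D9 (median -0.03), and 3 were higher and 12 lower in ESC against D9 (median -0.27). Eif4b, a helicase cofactor, was 0.56 ± 0.03 higher at D3, and Eif3f and Hnrnpa1 were lower in ESC than in D9 by 0.68 and 0.64 on the log2 scale, as edgeR values of -0.68 ± 0.04 and -0.64 ± 0.03 (edgeR adjusted p = 4.8e-10, 5.1e-09 and 3.2e-10). Tpt1, an abundant growth-related protein, was -0.95 ± 0.04 in ESC against MEF (edgeR adjusted p = 6.8e-11). Among the ribosomal proteins under other symbols, Rps27rt was higher at D3 (0.31 ± 0.05, edgeR adjusted p = 0.00012), and Fau and Rps27rt were lower in ESC than in D9. Of the 74 mitochondrial ribosomal protein genes, 37 were higher and 12 lower at D3 (20 and 20 with RLE scaling), 37 higher and 15 lower in ESC against D9, and 52 higher and 9 lower in ESC against MEF (median 0.51, with 40.4% and 36.2% of all genes). Mrps31 and Mrpl15 were 1.77 ± 0.06 and 1.74 ± 0.04 higher in ESC than in MEF (edgeR adjusted p = 8.7e-13 and 7.8e-14).

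The regulators of ribosomal protein synthesis changed with the stages in different ways. Myc was at 118 and 117 CPM in MEF, 276 and 275 in D3, 334 and 325 in D6, 278 and 294 in D9, and 19.0 and 18.4 in ESC, with ESC far below every other library. The cassette encodes Myc, and reads of the cassette and of the endogenous gene cannot be told apart here. Mycn took the opposite course in ESC, going from 1.33 and 1.01 CPM in MEF to 31.0 and 30.4 in D6, 59.4 and 59.2 in D9, and 95.2 and 98.3 in ESC. Larp1, the binder of the pyrimidine tract, was at 194 and 187 CPM in MEF, 233 and 240 in D3, 347 and 330 in D6, 319 and 327 in D9, and 243 and 241 in ESC. Eif4ebp1, the translation repressor that mTOR inactivates, had the opposite shape, with 250 and 259 CPM in MEF, 83.3 to 116 in D3 to D9, and 279 and 284 in ESC. Their part in the changes of ribosomal protein genes was not tested.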

How the data were processed

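The authors deposited, per the file headers, 1 table for each library with estimated counts and TPM for 109617 transcripts. Per the submitters' processing notes, Salmon 0.8.2 and mm10 were used; the annotation release and filters are not given in the sources used here. Libraries were made with a stranded mRNA kit. The deposited estimated counts of a gene's transcripts were added up and rounded to whole numbers. Genes passing filterByExpr of edgeR 4.0.16 (minimum count 10, minimum total 15) were scaled with TMM and fitted by the quasi-likelihood test over the 10 libraries, each group having its own mean, with Benjamini-Hochberg adjustment over 20165 genes. Calls use an adjusted p under 0.05. CPM values are on the TMM scale. Members matched GENCODE M21 for coordinates, and look-alikes were found from its transcripts. Alternatives were DESeq2 1.42.0, limma 3.58.1 on log2(TPM + 1) and log2(TPM + 0.1), other scalings and filters, a replicate block and left-out libraries. The scripts were tested on simulated counts. With 2 against 2 libraries an exact permutation test cannot go below 0.333. Replicates differed by more than sampling noise (chi-square per degree of freedom 2.7 to 4.91). Members, lists and alternatives were chosen with earlier results of these data known, and the look-alike setting after seeing these values. The named genes were all paralogs, their parents, X-linked, stalk and Rpl5 and Rpl11 genes, the 4 highest and 4 lowest by TPM, and in each comparison the 3 core genes called furthest above and below the median core gene with groups that do not overlap; other lists name up to 3 genes. Proteins were not analysed here. A gene of the list of ribosomal proteins under other symbols is not reported here.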

Additional observations from a re-analysis of the deposited data

How the results depend on the processing

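In this paragraph each pair of counts is higher, then lower core genes. With a 2-fold minimum the pairs were 1 and 0 for D3 against MEF, 0 and 0 for D6 against D3 and for D9 against D6, 0 and 1 for ESC against D9, and 1 and 1 for ESC against MEF. For D3 against MEF the higher count stayed within 1.5 times 60 in all other settings, while the lower count was 7 with DESeq2 and with RLE scaling, 6 with the stricter filter and with only the 2 groups, and 1 with library-size scaling and with both limma fits. The core median was 0.49 with library-size and 0.16 with RLE scaling. For D6 against D3 the higher count was 32 with library-size scaling, 8 with only the 2 groups and 12 with look-alike reads, and the lower count was 4 with DESeq2, the stricter filter and log2(TPM + 1), 1 with library-size scaling, 5 with RLE scaling, and 6 without the low-count filter and with only the 2 groups. For D9 against D6 the higher count was 2 with DESeq2 and library-size scaling, 3 without the filter and with only the 2 groups, 4 with the stricter filter, and 0 with both limma fits, -ps reads and look-alike reads. The lower count was 13 without the filter, 4 with the stricter filter, 15 with only the 2 groups, and 24 and 21 with limma at a pseudocount of 1 and 0.1, and the median was -0.12 with log2(TPM + 1). For ESC against D9 the higher count was 9 and 8 with the 2 limma fits and 2 with look-alike reads, the lower count 24 with each limma fit, and the median -0.18 with library-size scaling, -0.16 with RLE and -0.06 with log2(TPM + 1). For ESC against MEF the higher count was 20 with DESeq2 and 67 with library-size scaling, and the lower count 2 with library-size scaling, 26 with RLE and 8 with each limma fit. The median was 0.41 with library-size scaling, 0.15 with log2(TPM + 1) and 0.03 with look-alike reads, and it turned to -0.01 with RLE scaling. The causes were not tested.

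Leaving out 1 library at a time gave 54 to 67 higher and 1 to 6 lower core genes for D3 against MEF (median 0.21 to 0.36), 5 to 32 and 0 to 21 for D6 against D3 (-0.06 to 0.1), 1 and 1 to 7 for D9 against D6 (-0.07 to -0.02), 3 to 5 and 46 to 56 for ESC against D9 (-0.25 to -0.21), and 24 to 30 and 12 to 17 for ESC against MEF (0.04 to 0.09). With the replicate number as a block the counts were 60 and 2, 17 and 2, 1 and 7, 4 and 55, and 32 and 16, and of the paralogs only Rpl39l in ESC against MEF lost its call (adjusted p = 0.061, edgeR). Deviations of same-numbered libraries correlated at -0.0205 to 0.0222, so the numbers show no pairing.

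Of the single genes, some turned direction. With look-alike reads (and with -ps reads, given second where both apply) Rpl30 was 0.09 and 0.15 for D3 against MEF and -0.11 and -0.15 for ESC against D9, Rpl3 was -0.26 in both for ESC against D9, Rpl10 was -0.19 in both for D6 against D3, -0.04 in both for D9 against D6 and -0.44 in both for ESC against MEF, and Rpl17 was -0.13 in both for ESC against MEF. With look-alike reads alone Rpl5 was -0.01 for D6 against D3 and Rpl12 -0.15 for ESC against MEF. With both limma fits Rpl10 was -0.02 for D9 against D6 and 0.04 for ESC against D9, and Rpl22 was 0.08 for ESC against D9. With library-size scaling Rps2 was 0.06 for D3 against MEF, and for ESC against MEF Rpl39l was 0.11, Rpl39 0.1, Rplp0 0.08, Rplp1 0.0, Rps16 0.17, Rps19 0.04, Rps4x 0.22 and Rpsa 0.2. When scaled to the core genes, Rpl10 was -0.11, Rpl39 -0.07, Rpl6 -0.01 and Rps3a1 -0.0 for D3 against MEF, and Rpl39 was 0.02 for ESC against D9. In all, 185 named genes and comparisons met 2769 alternatives, of which 2423 kept direction and call, 36 turned, 194 lost a call and 116 gained one. Depth limits Rpl3l, with at most 5 reads in a library before ESC.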
